A study of Mus musculus with 7 samples.

Results

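Papillomas of the mouse skin were examined for the expression of 10 antimicrobial genes, taken by symbol from the 23284 gene symbols listed for each papilloma. They were 5 beta-defensins (*Defb1*, *Defb3*, *Defb4*, *Defb6* and *Defb14*), *Slpi* and *Lcn2*, which epithelium and neutrophils both make, and *Ltf*, *Camp* and *Pglyrp1*, whose products are stored in neutrophil granules. They were taken by name, with no measured value in the rule. RNA-seq had been done on papillomas of 4 CTR mice and 3 TG mice, 1 library for each mouse. All mice had a C57Bl/6 background, carried the *tetO-Nanog* allele, drank water with doxycycline (DOX, 2 mg/ml), and received the mutagen DMBA followed by the tumor promoter TPA on the skin. The groups were littermates of matched age and differed in *K5-rtTA*, a transactivator under the bovine keratin 5 promoter that only TG mice carried and that turns *Nanog* on in basal keratinocytes. CTR mice therefore shared the allele and DOX and lacked the transactivator. Papillomas were collected when the protocol finished or when a mouse had to be killed earlier. Tissue was not sorted, and each library can mix keratinocytes with stroma and infiltrating cells.

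Antimicrobial peptides and proteins form a chemical barrier on skin. Beta-defensins are short cationic peptides secreted by keratinocytes that damage microbial membranes, and some of them also attract immune cells through the receptor CCR6. SLPI inhibits neutrophil elastase and cathepsin G and kills microbes directly, LCN2 binds bacterial siderophores and so withholds iron, and lactoferrin (*Ltf*) binds iron itself. Cathelicidin (*Camp*) is cut by proteases into a membrane-active peptide, and PGLYRP1 binds bacterial peptidoglycan. In wounded, infected or tumor-promoted epidermis, IL-1, IL-17 and IL-22 are known inducers of several of these genes.

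The beta-defensin coding sequences are shown because the members that follow are close relatives with very different values. They are read from the GENCODE M21 transcripts (GRCm38), 5′ to 3′ from the start codon to the stop codon, with in-frame cysteine codons in capitals.
Defb4: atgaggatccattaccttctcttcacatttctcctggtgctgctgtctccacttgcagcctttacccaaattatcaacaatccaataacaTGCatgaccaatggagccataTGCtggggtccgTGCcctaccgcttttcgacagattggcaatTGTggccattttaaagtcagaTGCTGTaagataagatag
Defb14: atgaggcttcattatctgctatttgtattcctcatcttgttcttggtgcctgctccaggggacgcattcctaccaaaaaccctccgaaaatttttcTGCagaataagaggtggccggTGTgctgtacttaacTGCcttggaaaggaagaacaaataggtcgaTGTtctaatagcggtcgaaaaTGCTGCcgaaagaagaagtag
Defb3: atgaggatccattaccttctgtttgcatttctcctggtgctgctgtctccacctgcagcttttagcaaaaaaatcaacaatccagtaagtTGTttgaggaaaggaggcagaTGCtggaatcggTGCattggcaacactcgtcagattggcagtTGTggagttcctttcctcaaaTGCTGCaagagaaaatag
Defb6: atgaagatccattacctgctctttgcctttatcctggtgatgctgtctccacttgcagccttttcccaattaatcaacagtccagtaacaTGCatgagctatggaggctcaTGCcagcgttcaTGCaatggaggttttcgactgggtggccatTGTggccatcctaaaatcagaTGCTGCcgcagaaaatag
Defb1: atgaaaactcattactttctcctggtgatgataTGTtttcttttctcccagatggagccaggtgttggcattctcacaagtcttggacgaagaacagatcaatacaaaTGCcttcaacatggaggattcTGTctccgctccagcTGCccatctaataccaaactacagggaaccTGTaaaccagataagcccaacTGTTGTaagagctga

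Each sequence holds the 6 cysteine codons of the family in its second part, and *Defb1* holds a further one near its start, 7 in all. Between the 6 cysteines the steps in codons are 7, 4, 10, 7 and 1 in *Defb3*, *Defb4* and *Defb6*, and 7, 5, 10, 7 and 1 in *Defb14* and *Defb1*. In global alignment *Defb4* was 78.6% identical to *Defb6* and 76.0% to *Defb3*, *Defb3* was 71.9% identical to *Defb6*, and the 7 pairs with *Defb1* or *Defb14* lay between 47.5% and 56.7%. Reads had 40 bases and were aligned with up to 2 mismatches. No window of 40 bases in 1 of these transcripts matched another of the 5 within 2 mismatches, so reads from these transcript sequences could be told apart. Some deposited loci, such as that of *Defb14*, extend past the annotated transcript, and sequence beyond it was not searched. Of the 415 windows of *Defb4*, 33 are also present in *Defb8*, which had at most 0.647 FPKM.

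All 10 genes code for protein. In the deposited loci (GRCm38, 1-based), *Defb14* lies on chromosome 8 from 19194328 to 19195309, *Defb4* from 19198704 to 19201547, *Defb6* from 19225478 to 19228209 and *Defb3* from 19293361 to 19295339, side by side on the plus strand, and *Defb1* lies on the same strand from 21776555 to 21795185. *Lcn2* (32384637 to 32387739) and *Slpi* (164354070 to 164356507) are both on the minus strand of chromosome 2. *Camp* (109847377 to 109849456, minus strand) and *Ltf* (111019292 to 111042766, plus strand) are on chromosome 9, and *Pglyrp1* is on chromosome 7 from 18884690 to 18890438, on the plus strand.

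The authors deposited FPKM values, read counts scaled to transcript length and library size, which can be set side by side between genes because they are per length. The implied depth was between 10077008 and 15711400 reads on genes, with CTR 3 and TG 1 the deeper libraries. *Nanog* was between 36.9 and 66.9 FPKM in TG and between 2.70 and 12.7 FPKM in CTR papillomas, as the labels require. The basal keratin *Krt14* was between 4717 and 10937 FPKM and *Krt6a*, the keratin of activated epidermis, between 5372 and 7965 FPKM, so every library held much keratinocyte RNA. TG 3 stood apart. Its correlations with the other libraries across genes (0.903 to 0.937) were below those among the other 6 (0.945 to 0.977), its summed skeletal muscle markers (7 genes) reached 625 FPKM against 1.50 to 4.83 FPKM elsewhere, and its 6 summed fibroblast markers reached 678 FPKM against 73.5 to 129 FPKM. Results are therefore also given without TG 3.

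Within CTR papillomas the order of mean levels in FPKM was *Slpi* (4164), *Defb4* (539), *Defb14* (328), *Defb1* (44.2), *Defb6* (26.6), *Defb3* (17.2), *Ltf* (9.37), *Lcn2* (4.89), *Pglyrp1* (2.14) and *Camp* (0.0224). *Slpi* exceeded every other member in every papilloma, and among CTR papillomas the ranges of *Defb14* and *Defb1* did not overlap. The ranges of *Defb4* and *Defb14* overlapped, with *Defb4* the higher in 2 of the 4 CTR papillomas, and every further neighbour down to *Pglyrp1* overlapped the next. In TG papillomas the same scale gave *Slpi* (2193), *Defb14* (376), *Defb4* (287), *Ltf* (114), *Defb1* (83.1), *Defb3* (81.2), *Defb6* (22.4), *Lcn2* (22.3), *Pglyrp1* (4.51) and *Camp* (0). The place of *Ltf* in that order came from TG 3, which held 99.9% of its summed TG level. The plot of all members by papilloma shows these levels.

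**Figure D1:**
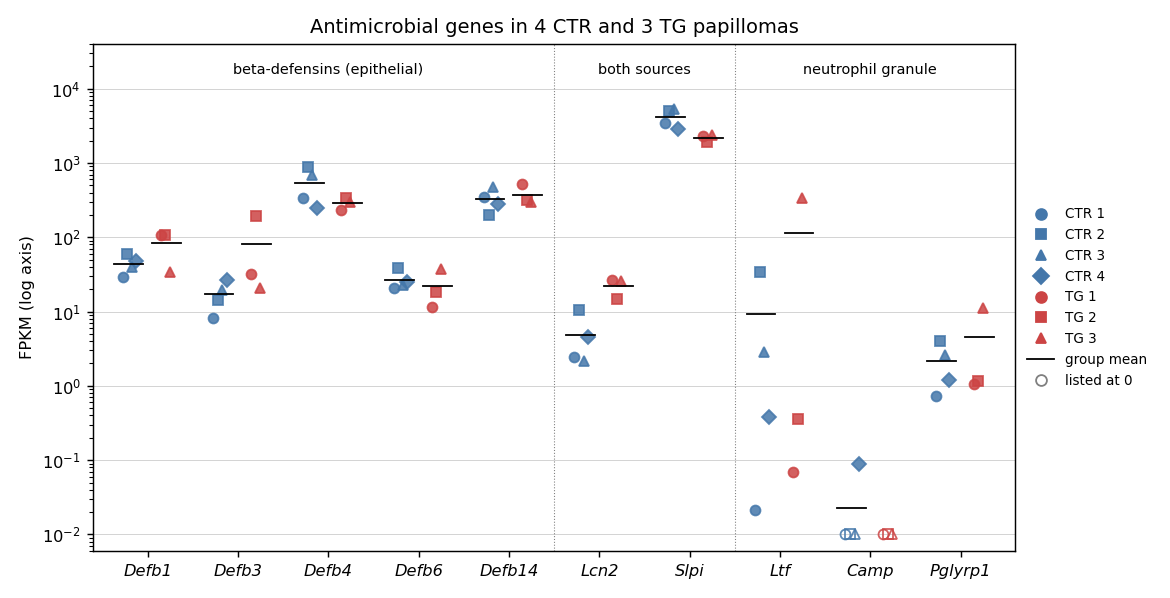
FPKM (log axis) of the 10 antimicrobial genes in each papilloma, with CTR in blue, TG in red, a symbol for each replicate number, the arithmetic group mean as a bar and open symbols at the bottom for values listed at 0. *Slpi* lies above every other gene, *Lcn2* is higher in each TG papilloma (14.8 to 26.4 FPKM) than in any CTR papilloma (2.14 to 10.4 FPKM), and *Ltf* spans from 0.0210 to 341 FPKM.

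The groups were compared with limma, a linear model with moderated variances, on log2(FPKM + 0.5), a scale that understates differences of genes with low FPKM. Testing took in the 12299 genes whose mean reached 0.5 FPKM, and 9 of the 10 members were among them, all except *Camp*. At an adjusted p under 0.05, 0 of the 9 members were called, against 0% of all tested genes (limma, Benjamini-Hochberg adjustment). Before adjustment, p was under 0.05 for 598 genes (4.86%) that were higher and 241 (1.96%) that were lower in TG papillomas. Among the members, *Lcn2* and *Defb3* were higher and *Slpi* was lower at that level. That held under all 21 alternatives for *Lcn2*, but under 12 for *Defb3* (p up to 0.145, without TG 2) and 15 for *Slpi* (p up to 0.128, with no filter on low values). With sample quality weights, in which limma gave TG 3 the lowest weight, the adjusted p was under 0.05 for 49 genes higher and 36 lower in TG. The balance of directions at an unadjusted p under 0.05 moved with scaling, to 515 higher and 418 lower after upper-quartile scaling and to 403 and 551 after quantile normalization. The FPKM ranges of the groups did not overlap for 1 member that was higher in TG (*Lcn2*) and 1 that was lower (*Slpi*), while this held for 4.93% of all tested genes in the higher and 2.23% in the lower direction. Without TG 3 it held for 3 members in the higher direction (*Defb1*, *Defb3* and *Lcn2*) and 2 in the lower (*Defb6* and *Slpi*), against 8.94% and 8.97% of all tested genes. The median log2 difference of the 9 members was 0.43, and that of all tested genes 0.06. Without TG 3 they were -0.53 and -0.03.

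**Figure D2:**
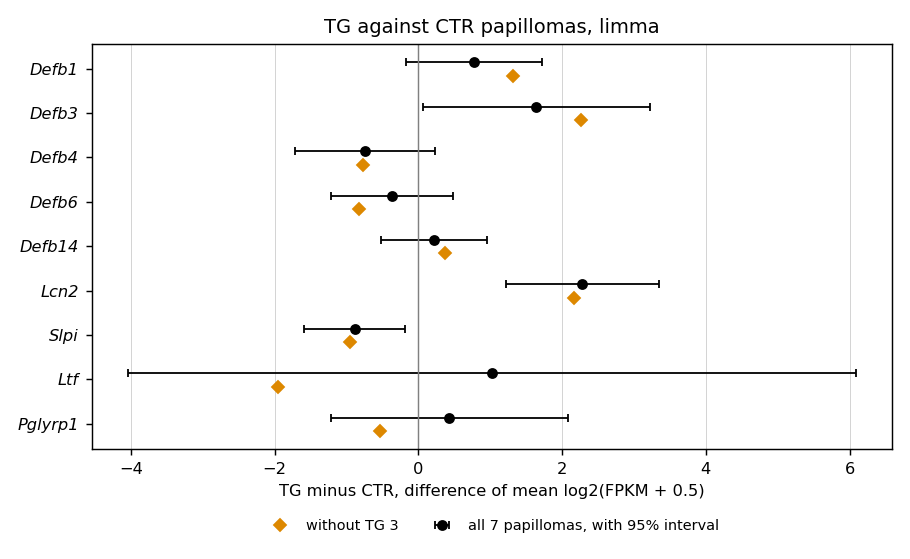
Difference between TG and CTR papillomas in mean log2(FPKM + 0.5) for the 9 tested members, with points for all 7 papillomas and bars for the 95% interval from limma, and diamonds for the estimate without TG 3. The intervals of *Lcn2* (1.22 to 3.35), *Defb3* (0.07 to 3.22) and *Slpi* (-1.59 to -0.18) leave out 0 before adjustment, and the estimates of *Ltf* and *Pglyrp1* change sign without TG 3.

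*Lcn2* encodes lipocalin 2, an iron-withholding protein made by inflamed epithelium and by neutrophils. TG 1, TG 2 and TG 3 had 26.4, 14.8 and 25.8 FPKM, and CTR 1 to CTR 4 had 2.44, 10.4, 2.14 and 4.54 FPKM. Each TG papilloma was above each CTR papilloma, and CTR 2 was the nearest. The means were 22.3 ± 6.51 FPKM (SD, n = 3) and 4.89 ± 3.85 FPKM (SD, n = 4), a 4.57-fold difference, on between 34 and 542 implied reads. On the log2 scale the groups differed by 2.28 (SE 0.47, limma adjusted p = 0.538). In the exact permutation test (2-sided, 35 splits, smallest possible p 0.0286), p was 0.0571. Limma put the log2 difference at 2.16 without TG 3 and 1.88 in the 5 papillomas of lower depth. Under the 21 alternatives the adjusted p from limma ran from 0.0453, with sample quality weights, to 0.999. In bulk libraries, fewer cells of a type and less RNA per cell cannot be told apart. *Lcn2* and *Ltf* are also on the list of upregulated genes that the study drew from these same papillomas, which is not independent evidence of their direction.

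*Slpi* encodes the secreted inhibitor of leukocyte proteases and was among the most abundant transcripts of the papillomas. It ranked between 6 and 9 of all symbols in CTR papillomas and between 11 and 21 in TG papillomas. CTR 1 to CTR 4 had 3421, 5081, 5288 and 2865 FPKM, and TG 1 to TG 3 had 2294, 1901 and 2384 FPKM. Each TG papilloma was below each CTR papilloma, with a small gap between CTR 4 and TG 3. The means were 4164 ± 1204 FPKM (SD, n = 4) in CTR and 2193 ± 257 FPKM (SD, n = 3) in TG papillomas, 1.90-fold higher in CTR. The fitted log2 difference was -0.88 (SE 0.31, limma adjusted p = 0.687), and p was 0.0571 in the 2-sided exact permutation test. It was -0.95 without TG 3, -0.79 in the papillomas of lower depth and -0.97 after division by the keratinocyte markers *Krt5*, *Krt14* and *Trp63*. *Slpi* made up between 80.3% and 82.1% of the summed FPKM of the 10 members in CTR papillomas and between 65.9% and 71.3% in TG papillomas.

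The 250 bases before the transcription start of *Lcn2* and *Slpi*, the members whose groups did not overlap, are shown 5′ to 3′ on the coding strand (RefSeq, GRCm38.p6, minus strand of chromosome 2). The *Lcn2* window is chr2:32387740-32387989 and the *Slpi* window chr2:164356508-164356757. Capitals mark a match to the C/EBP half-site pair TTGCNNAA on either strand.
Lcn2: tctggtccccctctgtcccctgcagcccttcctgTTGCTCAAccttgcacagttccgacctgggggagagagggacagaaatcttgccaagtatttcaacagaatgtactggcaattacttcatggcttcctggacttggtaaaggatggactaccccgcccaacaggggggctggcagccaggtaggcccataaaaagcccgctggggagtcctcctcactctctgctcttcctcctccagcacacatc
Slpi: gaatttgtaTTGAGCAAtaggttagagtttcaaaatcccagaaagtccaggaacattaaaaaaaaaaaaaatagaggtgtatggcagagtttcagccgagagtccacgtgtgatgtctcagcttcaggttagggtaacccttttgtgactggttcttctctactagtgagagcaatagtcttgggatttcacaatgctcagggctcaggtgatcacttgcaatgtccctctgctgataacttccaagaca

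The *Lcn2* match starts at base -216 and the *Slpi* match, on the other strand, at base -241. Of the 7 members with a RefSeq promoter, TTGCNNAA was present in *Defb3*, *Defb6*, *Lcn2*, *Ltf* and *Slpi*, and in 9.56% of all 32851 promoter windows of this length. An NF-kB site pattern was found in *Pglyrp1* alone among the 7, and in 1.41% of all windows. AP-1 (TGANTCA, 6.75% of all windows), STAT (TTCNNNGAA, 7.02%) and homeodomain (TAATGG, 6.57%) patterns were not present in the 7 windows. Both strands were searched, the patterns do not overlap one another in these windows, and a match is a description of letters.

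The beta-defensins differed among themselves. *Defb3*, an inducible defensin, had 31.7, 191 and 21.0 FPKM in TG 1 to TG 3, and 8.25, 14.5, 19.7 and 26.3 FPKM in CTR 1 to CTR 4. TG 2 was 6.02 times the next highest papilloma, and TG 3 lay within the CTR range. The means were 81.2 ± 95.1 FPKM (SD, n = 3) and 17.2 ± 7.69 FPKM (SD, n = 4), which gave a log2 estimate of 1.64 (SE 0.70, limma adjusted p = 0.720). It was 2.26 without TG 3 and 0.69 without TG 2. In the 2-sided exact permutation test p was 0.0857.

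*Defb1*, the defensin that epithelia make without induction, had 109, 106 and 34.4 FPKM in TG 1 to TG 3. Its CTR values were 28.9, 60.2, 39.9 and 47.7 FPKM in CTR 1 to CTR 4. TG 1 and TG 2 were above every CTR papilloma and TG 3 was above only CTR 1. Between the groups limma gave a log2 difference of 0.78 (SE 0.42, limma adjusted p = 0.813, exact permutation p = 0.229), 1.32 without TG 3 and 0.46 in the papillomas of lower depth.

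*Defb4*, an inducible defensin and the most abundant in CTR papillomas, had 333, 881, 696 and 248 FPKM in CTR 1 to CTR 4. Its TG values were 231, 333 and 295 FPKM in TG 1 to TG 3. CTR 2 and CTR 3 were above all the others and the remaining 5 papillomas overlapped. On the log2 scale the groups differed by -0.74 (SE 0.43, limma adjusted p = 0.826, exact permutation p = 0.286), by -0.44 without CTR 2 and by -0.41 in the papillomas of lower depth.

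*Defb14*, which also signals to CCR6-bearing cells, had 353, 202, 476 and 280 FPKM in CTR 1 to CTR 4, and 514, 318 and 294 FPKM in TG 1 to TG 3. The groups overlapped, with the highest value in TG 1 and the lowest in CTR 2. Limma put the log2 difference at 0.22, with a 95% interval from -0.52 to 0.95. *Defb14* had the narrowest range of the members tested, 2.54-fold between the highest and the lowest papilloma.

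*Defb6*, a beta-defensin known from skeletal muscle as well as from epithelium, had 20.9, 38.3, 22.5 and 24.8 FPKM in CTR 1 to CTR 4, and 11.4, 18.4 and 37.5 FPKM in TG 1 to TG 3. TG 1 and TG 2 were below every CTR papilloma, and TG 3 was close to the highest, CTR 2. The fitted log2 difference was -0.37 (95% interval from -1.22 to 0.48), and -0.82 without TG 3. The summed muscle markers were 625 FPKM in TG 3 and 1.50 FPKM in CTR 2, the papillomas with the most *Defb6*, and the part of muscle in the TG 3 value was not tested.

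The sum of the 5 beta-defensins lay between 628 and 1254 FPKM in CTR and between 683 and 967 FPKM in TG papillomas. On the log2 scale the sums differed by -0.12 (2-sided exact permutation test over 35 splits, p = 0.714). The makeup of that sum varied more than the sum. *Defb3* was 19.7% of it in TG 2, elsewhere from 1.11% to 4.20%, and *Defb1* was 12.2% in TG 1 and 10.9% in TG 2 against 3.18% to 7.60% elsewhere. The ratio of *Defb14* to *Defb4* was 0.230 in CTR 2, 2.22 in TG 1 and from 0.685 to 1.13 elsewhere, and its log2 value differed by 0.96 between the groups (exact permutation p = 0.286).

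*Defb3* and *Defb6* are set beside each other because their promoters are alike while their patterns over the papillomas are not. Their ranges overlapped in both groups, and their levels were farthest apart in TG 2 (191 and 18.4 FPKM). The windows are the 250 bases before the start on the plus strand of chromosome 8, chr8:19293111-19293360 for *Defb3* and chr8:19225228-19225477 for *Defb6* (RefSeq, GRCm38.p6). Lower case marks bases identical in the alignment of the pair, and capitals mark bases that differ or have no partner.
Defb3: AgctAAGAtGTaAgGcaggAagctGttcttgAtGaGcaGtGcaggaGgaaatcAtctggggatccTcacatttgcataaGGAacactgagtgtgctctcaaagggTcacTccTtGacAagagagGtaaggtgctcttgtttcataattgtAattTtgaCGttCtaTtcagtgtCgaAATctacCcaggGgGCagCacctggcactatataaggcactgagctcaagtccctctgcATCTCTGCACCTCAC
Defb6: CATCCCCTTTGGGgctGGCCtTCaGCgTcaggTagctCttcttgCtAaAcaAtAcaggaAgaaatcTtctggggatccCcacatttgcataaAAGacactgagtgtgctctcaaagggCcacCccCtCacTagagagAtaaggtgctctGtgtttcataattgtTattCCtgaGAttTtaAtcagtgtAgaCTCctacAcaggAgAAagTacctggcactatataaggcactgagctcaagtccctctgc

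Of 235 aligned base pairs 192 were identical (81.7%), while the other 20 pairs of member promoters aligned the same way lay between 53.2% and 66.8%. The stretch ttgcataa, a match to TTGCNNAA, is shared, at base -179 in *Defb3* and at base -166 in *Defb6*, and *Defb6* holds a second match at base -209. Across the 7 papillomas *Defb3* ranged 23.1-fold and *Defb6* 3.37-fold, and TG 2, the highest for *Defb3*, was the second lowest for *Defb6*. The other 39 beta-defensin symbols of the files summed to at most 1.18 FPKM in any papilloma, and 32 were listed at 0 in all 7.

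Of the neutrophil granule members, *Camp* was at or near 0 throughout, *Ltf* was under 0.5 FPKM in 4 of the 7 papillomas, and *Pglyrp1* was at least 0.728 FPKM in each. *Camp*, which encodes cathelicidin, was listed at 0 in 6 papillomas and had 0.0894 FPKM in CTR 4, about 1 read. In these libraries 3 reads, the limit that a count of 0 allows, correspond to between 0.172 and 0.269 FPKM of *Camp*, for counting error only.

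*Ltf*, which encodes lactoferrin, a protein of neutrophil specific granules and of glandular secretions, had 0.0210, 34.2, 2.90 and 0.376 FPKM in CTR 1 to CTR 4, and 0.0697, 0.359 and 341 FPKM in TG 1 to TG 3. The extremes were 1 implied read in CTR 1 and 14611 in TG 3, and the second highest papilloma was a control. The mean was 114 FPKM over TG and 9.37 FPKM over CTR papillomas, while the medians were 0.359 and 1.64 FPKM. Between the groups limma gave a log2 difference of 1.02 (SE 2.23, 95% interval from -4.04 to 6.09, limma adjusted p = 0.968), and -1.95 without TG 3. Setting every TG papilloma against every control, 6 of 12 pairs were higher in TG (exact permutation p = 0.657).

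*Pglyrp1*, the peptidoglycan recognition protein of granules, had 0.728, 4.04, 2.59 and 1.21 FPKM in CTR 1 to CTR 4, and 1.06, 1.18 and 11.3 FPKM in TG 1 to TG 3. It was highest in TG 3 and next in CTR 2, the order seen for *Ltf*. On the log2 scale the groups differed by 0.43 (95% interval from -1.22 to 2.08), and by -0.53 without TG 3. It rests on between 8 and 121 implied reads, and 4.41% of the 40-base windows of its transcripts also occur in other genes.

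Markers of neutrophils were read beside these genes. Of 14 listed markers 13 were in the files and 5 passed the FPKM minimum, and 8 of the 12 above 0 were highest in TG 3. Of all 12299 tested genes, 5050 were also highest in TG 3. The sum of the markers was between 5.75 and 10.9 FPKM in CTR papillomas, 12.3 in TG 1, 10.2 in TG 2 and 51.2 in TG 3. Outside TG 3 most of that sum was *Cxcr2* alone, at 11.1 FPKM in TG 1 and 8.71 FPKM in TG 2. In TG 3 *Cxcr2* was 9.99 FPKM, below TG 1. *Csf3r*, the receptor for the granulocyte growth factor G-CSF, reached 17.0 FPKM in TG 3 and lay between 0.265 and 0.750 FPKM in the other papillomas. *Retnlg*, a gene of mature neutrophils, reached 14.0 FPKM in TG 3 and at most 0.765 FPKM elsewhere. In CTR 2, where *Ltf* was 34.2 FPKM, *Csf3r* was 0.370 and *Retnlg* 0.200 FPKM, both within the range of the other CTR papillomas. The granule genes *Ctsg*, *Elane*, *Mpo* and *Ngp* were at or near 0 throughout. *Ltf*, itself a granule gene, was not, at 341 FPKM in TG 3 and 34.2 FPKM in CTR 2. *Ctsg* was listed at 0 in all 7 papillomas, *Elane* had a value in TG 2 alone (0.0819 FPKM), *Mpo* was at most 0.0339 FPKM, and *Ngp*, a granule protein gene like *Camp*, was 0.152 FPKM in TG 3 and listed at 0 elsewhere. *Cxcr2*, the chemokine receptor of neutrophils, was the marker with the highest mean, at 8.71 to 11.1 FPKM in TG and 4.84 to 9.16 FPKM in CTR papillomas. It was higher in TG in 11 of 12 pairs (log2 difference 0.70, limma adjusted p = 0.686, exact permutation p = 0.0857), and its unadjusted limma p was under 0.05. *Trem1*, a receptor of myeloid cells, and *Cd177*, a neutrophil surface protein, were higher in each TG papilloma than in any control, *Trem1* at 0.362 to 4.61 against at most 0.262 FPKM and *Cd177* at 0.0473 to 0.327 against at most 0.0325 FPKM. *Trem1* was thus 1 of the 5 tested markers whose groups did not overlap, as held in the higher direction for 4.93% of all tested genes. *Cd177* was below the minimum of the test, and outside TG 3 both genes were under 0.5 FPKM. *Prtn3*, another listed marker, was 0 in TG papillomas and at most 0.0791 FPKM in CTR papillomas. *Fpr1* differed by 0.84 on the log2 scale, and by -0.17 without TG 3. The median log2 difference of the 5 tested markers was 1.23, and 0.13 without TG 3, against 0.06 and -0.03 for all tested genes. The part of neutrophils in the *Lcn2* values was not tested.

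Glandular epithelium also makes lactoferrin. Of its 8 listed markers, the milk genes *Csn2*, *Csn3*, *Wap* and *Lalba* were listed at 0 in all 7 papillomas, *Krt18* was 23.3 FPKM in TG 3 and between 0.417 and 7.16 FPKM elsewhere, and *Elf5* was between 19.6 and 54.6 FPKM in CTR and between 7.96 and 27.6 FPKM in TG papillomas. *Krt7* was highest in TG 3 (2.75 FPKM) and next in CTR 2 (1.56 FPKM), the order of *Ltf*, and at most 0.775 FPKM elsewhere, and *Krt8* was 8.27 FPKM in TG 3 and at most 0.672 FPKM elsewhere. The macrophage markers summed to 75.9 FPKM in TG 3 and between 24.0 and 29.0 FPKM elsewhere. Of the 6 in the files 5 were highest in TG 3, and 41.9 FPKM of its sum was *Cd14*. *Cd68* was 18.2 FPKM there, within its CTR range (15.4 to 20.6 FPKM). Adipocyte marker *Adipoq* reached 3.34 FPKM in TG 3, where the other papillomas had no more than 0.0338 FPKM. Of the 6 tested fibroblast and 7 tested muscle markers, 1 in each list did not overlap between the groups and was higher in TG. Over all tested genes this held for 4.93%. The markers were *Pdgfra* of fibroblasts (0.563 to 3.52 against 0.280 to 0.369 FPKM) and *Tnnt3* of muscle (0.168 to 98.2 against at most 0.0669 FPKM). It held for 0 of the 2 tested adipocyte markers. *Lep* of adipocytes, below the minimum of the test, had 0.0105, 0.0142 and 0.431 FPKM in TG 1 to TG 3 and was listed at 0 in CTR papillomas. Without TG 3 the median log2 difference was -0.09 for fibroblast, 0.20 for muscle and -0.15 for adipocyte markers. The part of neutrophils, glandular cells, muscle or stroma in the TG 3 and CTR 2 values of *Ltf* and *Pglyrp1* was not tested. In CTR 2 *Elf5* was at its highest (54.6 FPKM), *Krt18* was 2.35 FPKM, and the muscle, fibroblast and macrophage sums were 1.50, 98.0 and 24.6 FPKM, within the range of the other CTR papillomas or, for muscle and macrophages, below it.

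**Figure D3:**
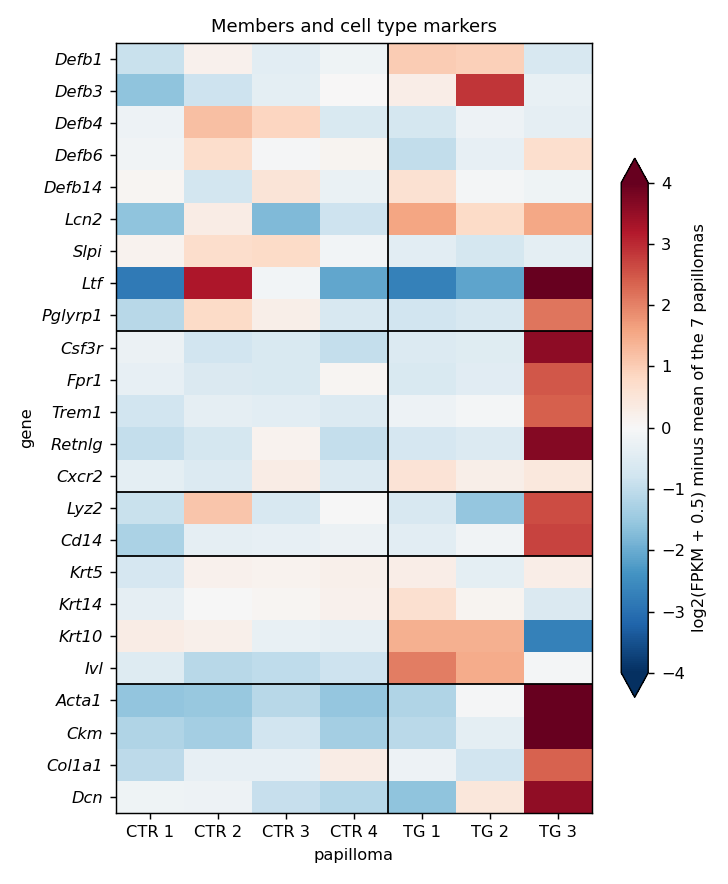
Log2(FPKM + 0.5) of the 9 tested members and of selected markers in each papilloma, each gene centred on its mean over the 7, with lines between members, neutrophil, macrophage, keratinocyte, and muscle and fibroblast genes (colors saturate at 4 in either direction). *Ltf* is high in CTR 2 and TG 3, *Csf3r*, *Retnlg*, *Acta1* and *Col1a1* are high in TG 3, and *Defb1* is high in TG 1 and TG 2, as are *Krt10* and *Ivl*.

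Keratinocyte differentiation markers were read beside *Defb1*. *Krt10*, a keratin of suprabasal cells, had 3150.1, 3133 and 181 FPKM in TG 1 to TG 3, against 917 to 1440.3 FPKM in CTR papillomas. *Krt1*, its partner keratin, had 1517, 3309 and 133 FPKM in TG 1 to TG 3 against 187 to 807 FPKM in CTR papillomas. *Ivl*, which encodes involucrin of the cornified envelope, had 159, 108 and 36.4 FPKM in TG 1 to TG 3 and between 17.7 and 26.8 FPKM in CTR papillomas (log2 difference 2.01, limma adjusted p = 0.538). *Lor*, which encodes loricrin of the same envelope, did not follow *Defb1*, with 1329, 690 and 366 FPKM in TG 1 to TG 3 and between 618 and 1555 FPKM in CTR papillomas (log2 difference -0.42, and 0.04 without TG 3). After division by *Krt5*, *Krt14* and *Trp63*, the *Defb1* log2 difference was 0.69 and the *Lcn2* difference 2.21, and no tested member changed direction. The part of differentiation state in the *Defb1* values was not tested.

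Genes whose pattern over the 7 papillomas was most like that of a member were found by the root mean square difference of centered log2 values. For *Defb3*, whose own deviation was 1.29, the nearest was *Lpo* (0.38), which encodes the antimicrobial enzyme lactoperoxidase and reached 10.6 FPKM in TG 2 and otherwise no more than 2.83 FPKM, followed by *2010005H15Rik* (0.42) and *Ddr2* (0.49). For *Defb1* (0.70) the nearest were *Atp12a* (0.15), *Gata3* (0.16) and *Trex1* (0.18), with *Gata3*, a transcription factor of keratinocytes and T cells, at 5.22 and 7.34 FPKM in TG 1 and TG 2 and between 1.16 and 2.91 FPKM elsewhere. For *Lcn2* (1.31) the nearest were *Basp1* (0.62), *Txnip* (0.68) and *Plau* (0.68), and for *Slpi* (0.53) they were *Hoxc5* (0.14), *Fetub* (0.20) and *D630033O11Rik* (0.20). The closest gene to *Ltf* (3.32) was *Ppbp* (1.06), which encodes a chemokine of platelets and had 558 FPKM in TG 3, 13.4 in CTR 3, 9.55 in CTR 2 and at most 0.374 FPKM elsewhere, and *Gm1045* (1.82) and *Gm9573* (1.92) were farther. *Ptger4*, a prostaglandin E2 receptor, was nearest to *Defb6* (0.19, own deviation 0.55), before *Tmem14a* (0.21) and *Lemd1* (0.22). For *Pglyrp1* (1.06) the list was *Cldn7* (0.29), *Ecm1* (0.30) and *Adamtsl4* (0.35), for *Defb4* (0.69) *Ccdc74a* (0.31), *Creg1* (0.31) and *Ifitm5* (0.34), and for *Defb14* (0.43) *3110009E18Rik* (0.12), *A630055G03Rik* (0.12) and *Brip1* (0.13).

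Signals that induce antimicrobial genes were examined as a list of 13 symbols, of which 11 were in the files and 7 tested. The symbols not found, *Il36a* and *Il36g*, are other names of *Il1f6* and *Il1f9*, which were present. *Il22* was listed at 0 in all papillomas, and *Il17a* and *Il17f* were at most 0.0540 FPKM. *Il1a*, an alarm cytokine that keratinocytes store, had 9.53, 16.5 and 44.9 FPKM in TG 1 to TG 3 against 3.12 to 8.88 FPKM in CTR papillomas (log2 difference 1.71, limma adjusted p = 0.633). *Il1f9*, the IL-36 family cytokine IL-36 gamma, averaged 144 ± 8.01 FPKM (SD, n = 3) over TG and 114 ± 11.6 FPKM (SD, n = 4) over CTR papillomas. In each of the 12 pairs the TG papilloma was the higher, and the log2 estimate was 0.34 (limma adjusted p = 0.775). *Il1f6*, which encodes IL-36 alpha and had the highest mean of the list, overlapped between the groups (log2 difference -0.03). Of the 7, 0 had an adjusted and 1 (*Il1a*) an unadjusted p under 0.05, against 4.86% of all tested genes higher at the latter, and the median log2 difference was 0.62, or 0.03 without TG 3.

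Among 14 receptors and transcription factors that carry these signals, all tested, 3 had groups that did not overlap and 2 of those an unadjusted p under 0.05, each higher in TG papillomas, where 4.93% and 4.86% of all tested genes met these criteria. *Stat3*, which acts downstream of IL-22 and IL-6, had 28.2, 34.4 and 33.2 FPKM in TG 1 to TG 3 and between 19.7 and 24.0 FPKM in CTR papillomas (log2 difference 0.59, limma adjusted p = 0.564). *Cebpd*, a C/EBP factor, had 2.12 ± 0.462 FPKM (SD, n = 3) against 1.15 ± 0.269 FPKM (SD, n = 4), 0.67 higher on the log2 scale (adjusted p = 0.686). *Traf3ip2*, the IL-17 receptor adaptor, differed by 0.37 (adjusted p = 0.810). *Cebpb* had the highest mean of the list and differed by -0.04. The median of the list was 0.35, and 0.20 without TG 3.

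Of 12 partner genes, which encode receptors for the peptides and proteases that cut them or are inhibited by them, 7 were tested and 0 had an unadjusted p under 0.05. *Klk7*, a stratum corneum protease and the most abundant of the list, averaged 397 ± 128 FPKM (SD, n = 3) over TG and 295 ± 83.0 FPKM (SD, n = 4) over CTR papillomas, and the groups overlapped. *Trem1*, a receptor that PGLYRP1 binds, had 0.362, 0.428 and 4.61 FPKM in TG 1 to TG 3 and at most 0.262 FPKM in CTR papillomas. *Ccr6* was below the minimum of the test, at 0.257, 0.360 and 0.653 FPKM in TG 1 to TG 3 and at most 0.209 FPKM in CTR papillomas. *Elane* and *Ctsg*, the proteases that SLPI inhibits, were at or near 0 as given above.

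A further list held 18 antimicrobial genes of skin and of immune cells. Of its 13 tested genes 0 had an adjusted p under 0.05, 7 were higher at an unadjusted p under 0.05 and 0 lower, and 3 had groups that did not overlap, each higher in TG papillomas. Over all tested genes 4.86% were higher and 1.96% lower at that p, and 4.93% and 2.23% did not overlap in these directions. The median log2 difference was 1.10, and 0.93 without TG 3, against 0.06 and -0.03 for all tested genes. *Pglyrp4*, a peptidoglycan recognition protein of epidermis, had 21.9, 24.0 and 33.3 FPKM in TG 1 to TG 3 and between 9.09 and 14.6 FPKM in the controls, which differ by 1.10 on the log2 scale (SE 0.21, limma adjusted p = 0.498, exact permutation p = 0.0286). *Pglyrp3*, its neighbour in the family, had 12.4 ± 0.562 FPKM (SD, n = 3) against 9.04 ± 1.53 FPKM (SD, n = 4). *Rnase4*, a secreted ribonuclease, had 49.7, 51.8 and 26.5 FPKM in TG 1 to TG 3 and between 11.5 and 22.8 FPKM in CTR papillomas (log2 difference 1.27, limma adjusted p = 0.563). *Rnase4* and *Ang* share 40-base windows (8.95% of those of *Rnase4* occur in another gene), so their values are not fully separate.

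*S100a8* and *S100a9* encode the subunits of calprotectin, which sequesters zinc and manganese and is made by activated keratinocytes and by neutrophils. *S100a8* had 307, 860, 585 and 755 FPKM in CTR 1 to CTR 4 and 1846, 2257 and 752 FPKM in TG 1 to TG 3. TG 1 and TG 2 were above every CTR papilloma and TG 3 lay within the CTR range, as for *Defb1*. Limma put the log2 difference at 1.32 for *S100a8* and 1.26 for *S100a9* (limma adjusted p = 0.687 for each), and 1.80 and 1.58 without TG 3. *Wfdc12*, which encodes a protease inhibitor of the family of SLPI, had 166, 86.4 and 39.1 FPKM in TG 1 to TG 3 against 38.3 ± 13.2 FPKM (SD, n = 4) in the controls. The groups overlapped, with CTR 2 at 57.1 FPKM. The log2 difference was 1.16 (limma adjusted p = 0.702), a direction opposite to *Slpi*, and 12.2% of the *Wfdc12* windows occur in another gene. *Lyz1* and *Lyz2*, the lysozymes, share 24.3% of the windows of *Lyz1*. *Lyz2* had 54.1 FPKM in TG 3 and 18.7 in CTR 2, the 2 papillomas with the most *Ltf*, and between 2.55 and 8.43 FPKM elsewhere.

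**Figure D4:**
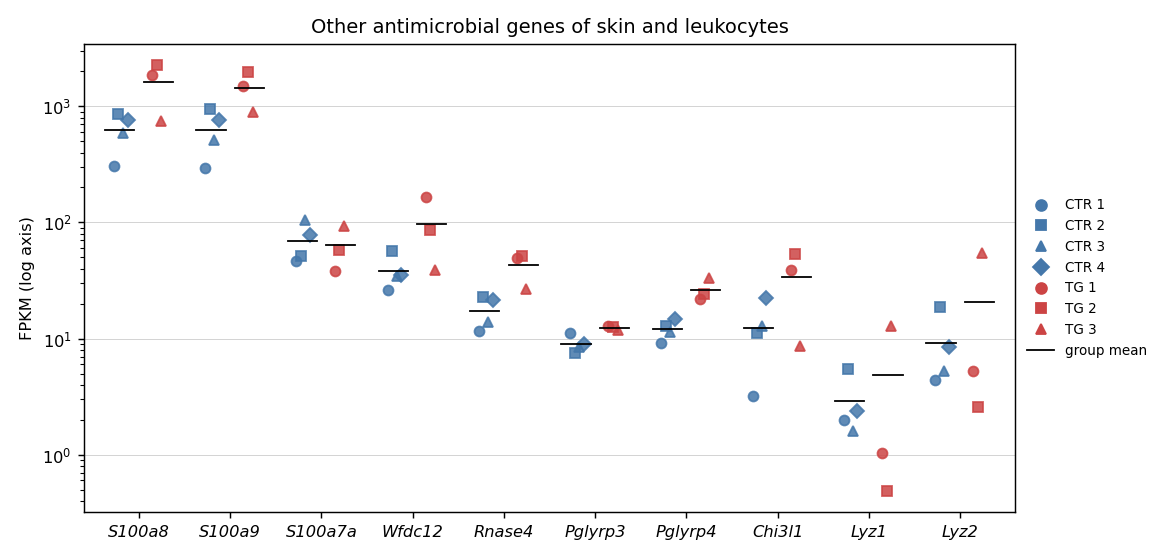
FPKM (log axis) of 10 further antimicrobial genes in each papilloma, with symbols and bars as in the plot of the members. *Pglyrp3*, *Pglyrp4* and *Rnase4* are higher in each TG papilloma than in any CTR papilloma, *S100a8*, *S100a9*, *Wfdc12* and *Chi3l1* are highest in TG 1 or TG 2, and *Lyz1* and *Lyz2* are highest in TG 3.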

How the data were processed

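RNA from papillomas of 4 CTR and 3 TG mice was sequenced, 1 library for each mouse, on polyA+ RNA with a stranded kit and single reads of 40 bases. Per the submitters' processing notes and the paper's methods, reads were aligned to GRCm38/mm10 with TopHat2 2.0.4, Bowtie 0.12.7 and SAMtools 0.1.16, with up to 5 hits for a read. The authors ran Cufflinks 1.3.0 on each library and deposited FPKM values with an interval and a status. No further scaling was applied. Entries of 1 symbol were summed, and 162 symbols with a failed estimate in any library were left out. The members' estimates all had the status OK. Locus starts count from 0 in the files (34.6% of 21083 starts equalled the annotation after adding 1, and 3.55% without), so 1 was added.

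Depth is not given in the files. The number of reads behind a value was inferred from the interval width, as the square of FPKM divided by its error, the error being the distance to the upper bound divided by 2. Between 66.7% and 68.0% of values under 50 implied reads came out whole within 0.05, so implied reads are approximate, and they cover counting error only.

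The tools were R 4.3.3 with limma 3.58.1, and Python 3.11.15 with numpy 2.4.6, pandas 2.3.3, scipy 1.17.1 and matplotlib 3.10.9. Genes whose mean reached 0.5 FPKM were fitted on log2(FPKM + 0.5) with a variance trend, 2-sided, with Benjamini-Hochberg adjustment over all 12299 genes and a threshold of 0.05. The authors tested differential expression on alignments, which these values cannot repeat. The fit was tested on simulated data for TG against CTR, with 200 of 12299 genes changed. Of genes changed by 1, 2 and 3 on the log2 scale 46.8%, 83.5% and 86.4% were called, with 9 false calls. Whether these shares hold for the papillomas was not tested. In the papillomas *Lcn2*, with a log2 difference of 2.28, was not called (limma adjusted p = 0.538). For a single gene an exact permutation test over the 35 splits of the papillomas was run. The labels give replicate numbers only, and the paper's methods state that the papillomas came from different mice. The p-values measure the spread between those mice.

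The members and lists were chosen with earlier results of these data known. The text names all members, *Nanog* and 6 defining neutrophil markers (*Ly6g* was not found under that symbol). It also names list genes whose groups do not overlap, the gene with the highest mean of most lists, and the 3 genes nearest in pattern to each tested member. Some further list genes were named after their values were seen. In all, 21 alternatives were tried (pseudocounts of 0.1 and 1, no filter or a filter at 2 FPKM, 3 scalings, limma without trend or robust, quality weights, a replicate block, the highest entry for a symbol, values of every status, the 5 libraries of lower depth, and each papilloma left out), and the count of members whose groups do not overlap without TG 3 was added after seeing the data.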

Additional observations from a re-analysis of the deposited data

Results flagged for a closer look

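In the 4 CTR papillomas, 8 of 42 genes examined had 1 papilloma far from the other 3, with a gap above Dixon's critical value at the 95% level. For normally distributed values chance gives about 1 such gene in 20, but FPKM was used here without a log transform. The genes are not independent, and some were examined because their groups did not overlap. The count of 8 in 42 therefore cannot be set against that share. Among the members these were *Ltf* at 34.2 FPKM in CTR 2 and *Camp* at 0.0894 FPKM in CTR 4, the latter about 1 read. CTR 3 was high for *Nanog* (12.7 FPKM), *Cxcr2* (9.16 FPKM) and *Acta1* (0.409 FPKM). CTR 4 was high for *Stat3* (24.0 FPKM), CTR 1 was high for *Ccr6* (0.209 FPKM), and CTR 2 was low for *Traf3ip2* (3.62 FPKM).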

How the results depend on the processing

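Directions of *Lcn2*, *Slpi*, *Defb1*, *Defb3* and *Defb4* held under all 21 alternatives, with log2 differences from 1.88 to 2.70, -1.05 to -0.75, 0.46 to 1.32, 0.69 to 2.76 and -1.05 to -0.35. *Lcn2* passed the threshold with sample quality weights only (2.07, adjusted p = 0.0453 from limma). *Ltf* was -0.48 and *Pglyrp1* -0.15 with those weights. With each papilloma left out in turn, *Ltf* ran from -1.95 (without TG 3) to 2.66, *Pglyrp1* from -0.53 (without TG 3) to 0.93, *Defb6* from -0.82 to 0.02 (without TG 1) and *Defb14* from -0.03 (without TG 1) to 0.42. The median of all tested genes was 0.12 without TG 1, above both of those *Defb6* and *Defb14* values, and 0.13 in the papillomas of lower depth, where *Defb14* was 0.17. Without TG 3, 3 members were apart in the higher and 2 in the lower direction, against 1 and 1 with it.

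Over all tested genes, 0 were called in each direction at an adjusted p under 0.05 (limma). Quality weights gave 49 higher and 36 lower, the papillomas of lower depth 1 higher, and leaving out 1 papilloma between 0 and 2 higher and between 0 and 1 lower. At an unadjusted p under 0.05, the 598 higher genes became 338 with keratinocyte marker scaling, 957 with no filter, 1161 with quality weights and between 364 (without CTR 3) and 825 with a papilloma left out. The 241 lower genes became 551 with quantile normalization, 418 with upper-quartile scaling, 1248 with quality weights and between 122 (without TG 2) and 539 (without TG 3) with a papilloma left out. The causes were not tested.

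The labels number CTR and TG papillomas alike, but deviations from the group means correlated at -0.186, 0.0431 and -0.146 for the pairs numbered 1, 2 and 3, so the numbers were not taken as pairs. With the replicate block 0 genes were called in each direction at an adjusted p under 0.05, with 505 higher and 170 lower at an unadjusted p under 0.05, and the log2 difference was 2.33 for *Lcn2* and -1.05 for *Slpi*. With 3 against 4 papillomas, and for *Camp*, *Ltf* and *Pglyrp1* few reads in most of them, differences of the size seen for *Defb6* and *Defb14* could not be told from 0.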
